A study of Mus musculus with 55 samples.

Results

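The genes described here are targets and feedback components of the BMP and Nodal signalling pathways in mouse ES cells that leave mitosis. Of 10 named genes, 9 had a row in both tables of pre-mRNA levels (Id1, Id3, Smad6, Smad7, Skil, Nodal, Tdgf1, Lefty1 and Lefty2), among 9911 genes in CCNA-GFP cells and 10237 genes in CTCF-AID cells. Id2 had a row in neither table and was not analysed here. The genes were taken by symbol from a list drawn up with earlier results of these data known. Both lines derive from E14Tg2a ES cells. CCNA-GFP cells carry a cyclin A-GFP reporter of the cell cycle, and the CTCF-AID line is a single clone in which the insulator protein CTCF carries an auxin-inducible degron, so that the auxin IAA triggers its degradation. Both arms of CTCF-AID, without IAA (-IAA) and with IAA (+IAA), carry the tagged protein, and all cells were grown in serum with LIF. Cells were treated with the CDK1 inhibitor RO-3306 (10 µM, 4 h) and then with nocodazole (50 ng/ml, 4 h), and mitotic cells were shaken off and released. In the +IAA arm, 0.5 mM IAA was present for the last 2 h of the nocodazole treatment and throughout the release, and asynchronous cells were treated for 4 h. The 55 libraries comprise 19 of CCNA-GFP, 18 of CTCF-AID -IAA and 18 of CTCF-AID +IAA. Asynchronous and mitotic cells have 3 replicates in each line and arm, and each time point after release has 2, except that 50 min in CCNA-GFP has 1 and allows no error. The 30 min point exists only in CCNA-GFP.

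In this pathway, BMP ligands act through SMAD1 and SMAD5, and Nodal acts through SMAD2 and SMAD3. ID1 and ID3 are inhibitors of bHLH transcription factors and classical targets of BMP in ES cells, where serum is a source of BMP activity. SMAD6 and SMAD7 are inhibitory SMADs that are induced by the pathways and block them, and SKIL (SnoN) is a repressor that binds SMADs. Nodal is itself a target of Nodal signalling, TDGF1 (Cripto) is its co-receptor, and LEFTY1 and LEFTY2 are secreted antagonists of Nodal that its signal induces.

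Values are deposited as TPM, a level per transcript length relative to the whole library, of the unspliced isoform of each gene. Low values are multiples of 0.01 TPM times a factor that differs between libraries (1.84 to 3.81), called the step factor below. Its source is not named, so whether the values are strictly relative to the whole library is unknown. Differences between stages are on the log2 scale of TPM + 1, which understates changes of low genes, and were tested with limma with the replicate as a block and with p-values adjusted over all listed genes. A stage difference was called at an adjusted p under 0.05. The 2 tables were normalised separately, and values of the lines are given side by side with no test between them. TPM hold no counts, so depth is unknown. The summed TPM of listed genes ran from 13747 to 42576 in CCNA-GFP libraries and from 17702 to 43370 in CTCF-AID libraries, lowest in mitotic and 20 min cells. Of 9 ES cell markers 8 were listed (Sox2 was not). They summed to 32.0 to 49.1 TPM in mitotic, 88.1 to 121 TPM in 60 min and 70.4 to 132 TPM in asynchronous CCNA-GFP libraries, and to 42.6 to 79.7, 92.0 to 119 and 71.5 to 140 TPM in CTCF-AID. None of 6 primitive endoderm markers was listed. Some markers of other lineages were listed too, and their sums, like those of ES cell markers, were higher at 60 min than in mitosis, with an overlap for mesoderm in CTCF-AID. In CCNA-GFP, 3 of 5 mesoderm markers (T, Eomes and Tbx6) summed to 0.900 to 1.43 TPM in mitotic, 3.12 to 3.68 TPM in 60 min and 0.436 to 2.42 TPM in asynchronous libraries. For 2 of 4 neural progenitor markers (Pax6 and Nes) the sums were 0.592 to 1.83, 2.97 to 5.34 and 0.667 to 3.64 TPM in that order, and the trophoblast marker Tfap2c, 1 of 4, was at 0.956 to 2.23, 3.81 to 7.35 and 1.13 to 2.35 TPM. In CTCF-AID the sums were 0.360 to 1.96, 1.43 to 5.50 and 0.433 to 5.84 TPM for mesoderm, 1.15 to 2.08, 4.90 to 10.8 and 0.826 to 3.43 TPM for neural and 1.86 to 3.09, 5.24 to 15.1 and 2.01 to 3.32 TPM for 2 trophoblast markers (Cdx2 and Tfap2c), in the same order. Of 5 fibroblast markers 2 (Col1a1 and Thy1) were listed in CTCF-AID alone, at 0.146 to 0.473, 1.87 to 2.95 and 0.348 to 1.17 TPM. Their part in the results below was not tested. In these bulk samples fewer cells of a type and less RNA per cell cannot be told apart. Ctcf pre-mRNA had a median of 7.06 TPM without and 7.78 TPM with IAA, and since the degron acts on the protein this does not check the depletion.

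The members lie at separate loci, apart from the neighbours Lefty1 (chr1:180935022-180938400, plus strand, GRCm38) and Lefty2 (chr1:180893108-180899103, plus strand), with 35918 bases between them. Their longest coding transcripts are 91.2% identical over 1159 aligned columns, and 281 of 1571 windows of 50 bases in Lefty1 (17.9%) also occur in Lefty2, so reads may be split between them and their separate levels are uncertain. Id1 (chr2:152736251-152737410, plus strand) spans only 1160 bases, and since a coding transcript without an intron covers all of it, its pre-mRNA and mRNA can hardly be separated. Id3 (chr4:136143497-136145755, plus strand) has 468 purely intronic bases. The other members have more intron, from 1621 bases in Lefty1 to 65779 bases, or 95.4% of the gene, in Smad6 (chr9:63953076-64022059, minus strand). Skil lies at chr3:31095058-31122577 (plus strand), Nodal at chr10:61417972-61425338 (plus strand) and Tdgf1 at chr9:110939603-110946158 (minus strand).

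The promoters of 4 members with measured levels are shown from RefSeq (GRCm38.p6). That of Smad7 is not reported here, and none was at hand for Id1, Skil, Lefty1 and Lefty2. At 60 min Id3, Smad6 and Nodal were called higher than in asynchronous cells in both lines, and Tdgf1 was called lower. Id1 and Smad7, which are not shown, were called higher as well. Each line gives the 250 bases before the RefSeq start, 5′ to 3′ on the strand of the gene, and capitals mark CAGAC, the core of a SMAD binding element, or GTCTG, its complement. The windows are chr4:136143572-136143821 (Id3, plus strand), chr9:64022060-64022309 (Smad6, minus strand), chr10:61417722-61417971 (Nodal, plus strand) and chr9:110946159-110946408 (Tdgf1, minus strand). The Id3 window lies inside the gene span given above, which is from Gencode and starts upstream of it at chr4:136143497.
Id3: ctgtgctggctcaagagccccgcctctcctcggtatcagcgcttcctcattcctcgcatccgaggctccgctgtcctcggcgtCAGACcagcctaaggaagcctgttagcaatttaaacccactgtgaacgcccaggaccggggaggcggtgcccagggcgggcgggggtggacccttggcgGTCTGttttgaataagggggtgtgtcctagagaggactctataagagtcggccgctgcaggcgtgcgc
Smad6: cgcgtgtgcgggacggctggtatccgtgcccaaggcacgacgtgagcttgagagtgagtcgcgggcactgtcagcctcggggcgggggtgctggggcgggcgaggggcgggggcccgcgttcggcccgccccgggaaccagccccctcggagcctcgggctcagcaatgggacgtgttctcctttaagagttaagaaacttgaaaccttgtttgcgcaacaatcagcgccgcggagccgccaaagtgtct
Nodal: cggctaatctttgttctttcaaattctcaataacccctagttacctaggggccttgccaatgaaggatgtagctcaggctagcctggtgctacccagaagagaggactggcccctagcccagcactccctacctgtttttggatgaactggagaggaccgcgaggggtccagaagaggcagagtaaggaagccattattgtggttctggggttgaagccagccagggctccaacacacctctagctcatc
Tdgf1: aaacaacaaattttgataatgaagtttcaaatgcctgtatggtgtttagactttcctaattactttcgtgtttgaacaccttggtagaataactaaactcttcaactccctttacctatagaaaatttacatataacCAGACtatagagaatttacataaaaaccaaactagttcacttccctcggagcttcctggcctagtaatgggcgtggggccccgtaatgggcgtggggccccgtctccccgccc

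In windows of 300 bases that also take in 50 bases after the start, CAGAC was searched on both strands and was found at 2 positions in Id3 (-167 and -68 from the start) and at 1 in Tdgf1 (-113), and it has no match in Smad6 and Nodal. It occurs in 49.6% of all 32851 promoters of this length, so a match is common. GGCGCC, the letters of a SMAD1/5 box, occurs in 11.9% of promoters and TATAAA in 13.6%, and neither has a match in these 4 windows. The window of Id2, which has no measured level and is not shown, holds GGCGCC at 1 position (-231) and neither of the other motifs. None of the matches overlap. The share of G and C in the window was 60% in Id3, 66.3% in Smad6, 54% in Nodal and 41.7% in Tdgf1, where the median of all promoters is 52.7%.

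The BMP targets Id1 and Id3 rose early after mitosis in both lines. In CCNA-GFP, Id1 was at 0.418, 0.531 and 0.478 TPM in mitotic cells, at 3.10 and 3.38 TPM at 40 min and at 3.12 and 4.10 TPM at 60 min. The 3 asynchronous libraries held 1.57, 1.98 and 1.37 TPM, below each library from 40 to 120 min. Id1 was the only member called at 30 min, with 1.62 TPM in replicate 1 and 0.799 TPM in replicate 3 (log2 difference from mitosis 0.63 ± 0.12 SE, limma adjusted p = 0.0449, against 0.303% of all genes called higher). That call is lost without replicate 1, where the log2 difference was 0.35. It is also lost without the block and with libraries scaled to the same total, where the log2 differences were about as large (0.56 and 0.64). At 60 min the difference from mitosis reached 1.56 ± 0.12 (adjusted p = 7.04e-10), and Id1 was higher in both replicates. In CTCF-AID -IAA the 60 min libraries held 3.51 and 8.30 TPM of Id1 against 0.739, 0.976 and 0.595 TPM in mitosis (1.80 ± 0.18, limma adjusted p = 3.14e-09). The asynchronous libraries of that arm held 0.837, 1.96 and 0.736 TPM, and each library from 40 to 60 min lay above them.

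Id3 was at a higher level (TPM) than Id1 in every CTCF-AID library. It rose from 1.83, 2.27 and 2.20 TPM in mitotic CTCF-AID -IAA cells to 6.27 and 15.5 TPM at 60 min (1.73 ± 0.23, limma adjusted p = 3.13e-07), and in CCNA-GFP from 0.697, 1.46 and 0.365 TPM to 2.63 and 6.29 TPM (1.36 ± 0.14, adjusted p = 2.02e-08). The replicates differed widely at 60 min, with replicate 2 above replicate 1 in both lines. Against asynchronous cells Id3 differed less. The asynchronous libraries held 1.83, 2.83 and 1.60 TPM in CCNA-GFP, and the lower 60 min library lay below the highest of them (0.60 ± 0.14, limma adjusted p = 0.000780). That call is lost without the block (adjusted p = 0.0512), without replicate 2 (0.0613), with division by the step factor (0.126) and with libraries scaled to the same total (0.858). In CTCF-AID -IAA the asynchronous libraries held 4.78, 5.56 and 3.83 TPM, below both 60 min libraries (0.85 ± 0.23, limma adjusted p = 0.00193), and the call is lost without replicate 2 (0.104) and with libraries scaled to the same total (0.559). The ratio of Id1 to Id3 was 0.175 to 0.352 in asynchronous and 0.271 to 0.430 in mitotic CTCF-AID -IAA libraries, and 0.536 to 0.559 at 60 min. In CCNA-GFP the ratio ran from 0.364 to 1.31 in mitosis and from 0.652 to 1.19 at 60 min. These ranges overlap, and within replicates 1 and 2, which have both stages, the 60 min ratio was the higher.

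By 120 min, Id1 was lower than at 60 min in CCNA-GFP (-0.35 ± 0.13, limma adjusted p = 0.0443), in CTCF-AID -IAA (-0.99 ± 0.20, adjusted p = 0.000172) and in CTCF-AID +IAA (-1.46 ± 0.20, adjusted p = 1.86e-06). Id3 fell in CTCF-AID without IAA (-0.90 ± 0.25, adjusted p = 0.00380) and with it (-1.12 ± 0.25, adjusted p = 0.000615). In CCNA-GFP, Id3 at 120 min was at 2.02 and 5.29 TPM and was not called (-0.24 ± 0.15, adjusted p = 0.220). The 120 min values still exceeded mitosis in all lines and arms for both genes, by 0.75 to 1.21 for Id1 and by 0.80 to 1.13 for Id3.

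**Figure D1:**
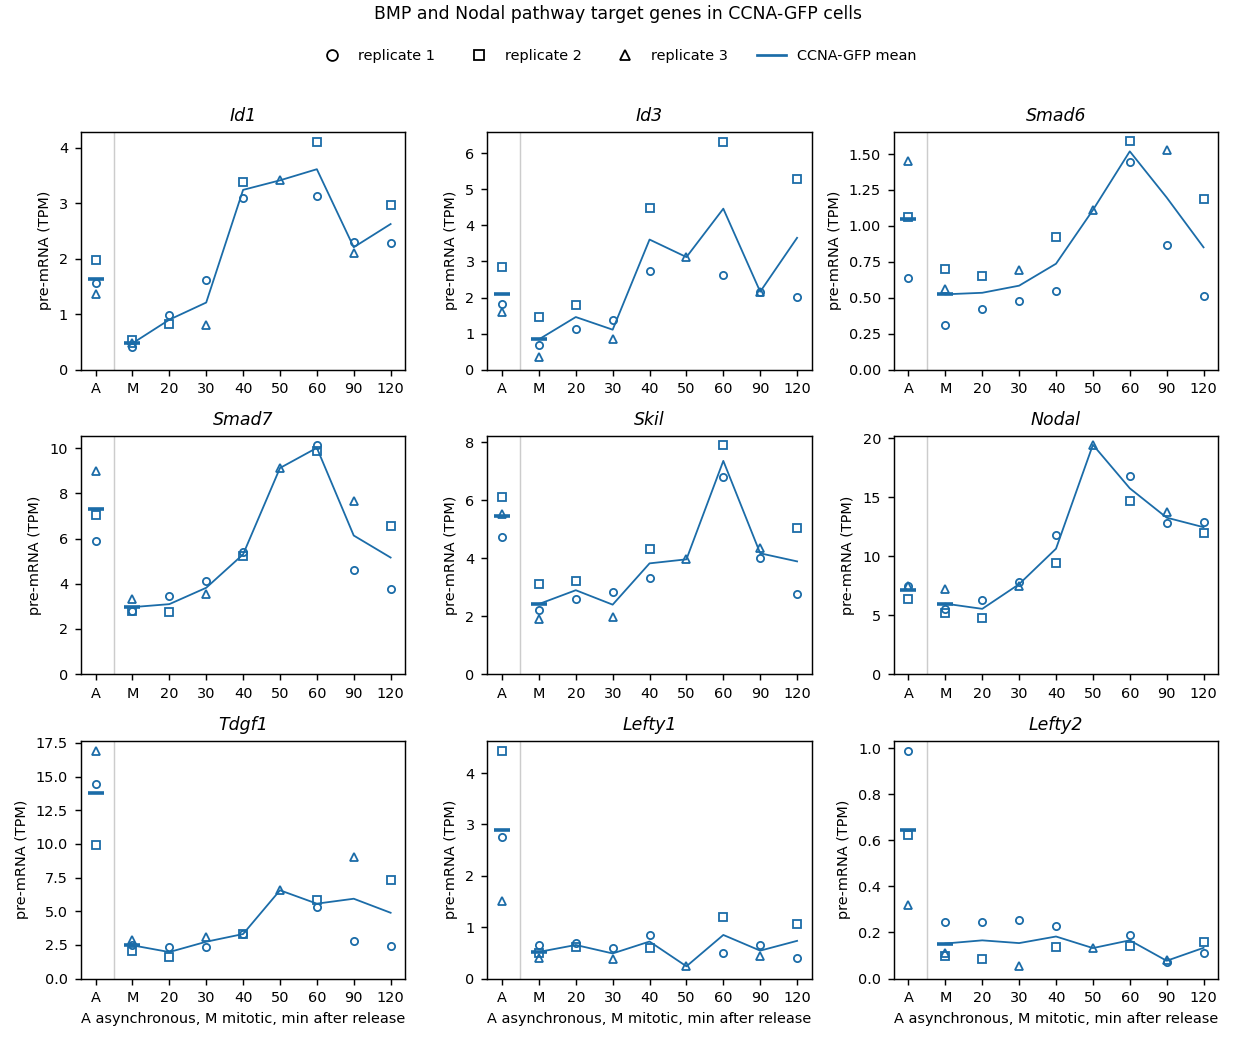
Pre-mRNA level (TPM, linear axis) of the 9 members in CCNA-GFP cells, by stage (A asynchronous, M mitotic, then min after release, not to scale in time). Symbols are single libraries by replicate, lines and short bars are means, and the 50 min point is 1 library. Nodal is near 6 TPM in mitosis, reaches 19.4 TPM at 50 min and stays above its asynchronous level to 120 min, whereas Tdgf1, Lefty1 and Lefty2 stay below theirs at each time point. Lefty2 is listed in this line only through asynchronous cells, so its lower levels are partly fixed by that filter.

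The intracellular inhibitors Smad7, Smad6 and Skil were higher at 60 min than in mitosis in both lines and fell from 60 to 120 min. With libraries scaled to the same total, the rise of Skil was not called in CCNA-GFP or in CTCF-AID -IAA. Under that scaling Smad6 was called higher in neither arm of CTCF-AID, and its difference turned slightly negative with IAA. The single 50 min library of CCNA-GFP held 9.12 TPM of Smad7, 1.11 TPM of Smad6 and 3.97 TPM of Skil, the last of these below all 3 asynchronous libraries. In CTCF-AID the 50 and 60 min means rest on different replicates, and in replicate 1, which has both, Smad7 was higher at 50 than at 60 min (8.39 against 6.81 TPM without and 9.18 against 7.22 TPM with IAA). Skil in that replicate was at 10.0 against 8.95 TPM without and 11.0 against 10.5 TPM with IAA, and Smad6 was slightly lower at 50 min in both arms. Smad7 (chr18:75367529-75395935, plus strand, GRCm38) was at 2.79, 2.79 and 3.32 TPM in mitotic CCNA-GFP cells, at 5.39 and 5.21 TPM at 40 min, at 10.2 and 9.86 TPM at 60 min and at 3.78 and 6.54 TPM at 120 min. Its 60 min libraries lay above all 3 asynchronous libraries (5.89, 7.05 and 8.98 TPM). The rise to 60 min was 1.56 ± 0.18 (limma adjusted p = 6.19e-08) and the fall from 60 to 120 min -0.88 ± 0.19 (adjusted p = 0.00126). Without replicate 1, the CCNA-GFP fall from 60 to 120 min was called in none of the members. In CTCF-AID -IAA, Smad7 went from 3.44, 3.17 and 4.22 TPM in mitosis to 6.81 and 12.6 TPM at 60 min and to 2.42 and 4.22 TPM at 120 min. At 120 min replicate 1 was thus below the mitotic libraries and replicate 2 level with the highest of them, and the fall was -1.29 ± 0.23 (limma adjusted p = 5.68e-05).

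Smad6, the other inhibitory SMAD, had a lower level. It was at 0.314, 0.698 and 0.562 TPM in mitotic and at 1.45 and 1.59 TPM in 60 min CCNA-GFP cells (0.80 ± 0.10, limma adjusted p = 3.22e-07). This difference is close to the median of all genes (0.79), and so is that in CTCF-AID -IAA, 0.75 ± 0.09 (adjusted p = 3.74e-08) against a median of 0.63. At 120 min Smad6 had fallen to 0.514 and 1.19 TPM in CCNA-GFP and to 0.753 and 1.12 TPM in CTCF-AID -IAA. The ratio of Smad7 to Smad6 was 4.00 to 8.89 in mitotic and 6.20 to 7.03 in 60 min CCNA-GFP libraries, with overlapping ranges.

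The log2 scale of TPM + 1 understates changes of low members such as Lefty1. On this scale Skil was the member with the largest fall from 60 to 120 min in CTCF-AID (-1.47 ± 0.15 without and -1.56 ± 0.15 with IAA). In CCNA-GFP it was at 2.23, 3.12 and 1.91 TPM in mitosis, at 6.81 and 7.92 TPM at 60 min and at 2.75 and 5.04 TPM at 120 min. In CTCF-AID -IAA it was at 4.85, 4.86 and 3.99 TPM in mitosis, at 8.95 and 12.8 TPM at 60 min and at 3.15 and 3.33 TPM at 120 min, when both libraries lay below all mitotic ones. The 120 min level differed from mitosis by -0.43 ± 0.14 in each arm of CTCF-AID (limma adjusted p = 0.00729 without and 0.00788 with IAA), where 3.15% and 4.42% of all genes were called lower. With libraries scaled to the same total Skil was again called lower in both arms, where 25.9% and 28.7% of all genes were. The call is lost without replicate 2 in the -IAA arm (adjusted p = 0.0580) and without replicate 1 in the +IAA arm (0.0505). In CCNA-GFP it differed by 0.42 ± 0.14 (adjusted p = 0.00756), and by -0.48 with libraries scaled to the same total.

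Nodal, the ligand, rose from 40 min and remained above mitosis through 120 min, a rise that in CCNA-GFP depended on the scaling of libraries. In CCNA-GFP it was at 5.54, 5.15 and 7.23 TPM in mitosis, at 6.29 and 4.77 TPM at 20 min, at 11.8 and 9.44 TPM at 40 min and at 19.4 TPM in the single library at 50 min. It was then at 16.8 and 14.7 TPM at 60 min, at 12.8 and 13.7 TPM at 90 min and at 12.9 and 12.0 TPM at 120 min. All libraries from 40 min on lay above the 3 asynchronous ones (7.45, 6.36 and 7.50 TPM). In CTCF-AID -IAA, Nodal was at 5.52, 3.78 and 5.51 TPM in mitosis, at 13.6 and 10.9 TPM at 40 min, at 12.8 and 11.1 TPM at 60 min and at 16.4 and 9.70 TPM at 120 min, against 4.89, 3.82 and 5.79 TPM in asynchronous cells. Mitotic and asynchronous libraries overlapped, and Nodal was the member with no call between them in any line or arm (0.23 ± 0.11 in CCNA-GFP, limma adjusted p = 0.0666, and -0.02 ± 0.11 in CTCF-AID -IAA, adjusted p = 0.883). In CCNA-GFP with libraries scaled to the same total, that difference was -0.30 and was called. Under that scaling the CCNA-GFP difference from mitosis was 0.27 at 40 min (adjusted p = 0.0539), 0.11 at 60 min (0.392) and -0.020 at 120 min (0.893), and none was called, whereas the calls in both arms of CTCF-AID at these times were kept.

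In CCNA-GFP, Nodal exceeded asynchronous cells by 1.11 ± 0.12 at 60 min (limma adjusted p = 1.43e-07). The excess at 120 min was 0.80 ± 0.12 (adjusted p = 2.48e-05). In CTCF-AID -IAA the corresponding values were 1.23 ± 0.13 (adjusted p = 6.25e-09) and 1.31 ± 0.13 (adjusted p = 1.10e-08). These are 0.64, 0.45, 0.70 and 1.08 above the median difference of all genes, in that order. Nodal was called in these comparisons under each of the alternative settings. From 60 to 120 min it was not called in CCNA-GFP (-0.31 ± 0.13, adjusted p = 0.0668) or in CTCF-AID -IAA (0.08 ± 0.14, adjusted p = 0.636), while 28.5% and 53.1% of all genes were called lower.

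Tdgf1, the co-receptor of Nodal, had a different course. It was at 14.4, 9.95 and 16.9 TPM in asynchronous CCNA-GFP cells, at 2.51, 2.03 and 2.87 TPM in mitosis, at 5.33 and 5.80 TPM at 60 min and at 2.42 and 7.35 TPM at 120 min, and each library after release lay below the asynchronous ones. Its difference between asynchronous and mitotic cells (2.07 ± 0.24, limma adjusted p = 1.99e-06) exceeded that of 99.9% of genes. At 60 min it differed from asynchronous cells by -0.96 ± 0.27 (adjusted p = 0.00365), and only 0.141% of genes had a lower difference. From mitosis it nevertheless rose in this line, by 1.11 ± 0.27 at 60 min (adjusted p = 0.000825), 0.78 ± 0.27 at 90 min (0.0115) and 0.81 ± 0.27 at 120 min (0.00890). The call at 120 min is lost without the block (0.106) and without replicate 2 (0.476), and with libraries scaled to the same total the 60 min difference was 0.036 and not called. In CTCF-AID -IAA, Tdgf1 was at 17.6, 8.69 and 20.0 TPM in asynchronous cells, at 6.72, 3.08 and 6.24 TPM in mitosis and at 4.97 and 6.31 TPM at 60 min. The 60 min libraries overlapped the mitotic ones (0.38 ± 0.35, adjusted p = 0.316), and the difference from asynchronous cells was -0.98 ± 0.35 (adjusted p = 0.0141). At 90 min the replicates were apart, at 4.19 TPM in replicate 1 and 13.0 TPM in replicate 3 of that arm, above the lowest asynchronous library, and at 2.81 and 9.04 TPM in CCNA-GFP.

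Lefty1, an antagonist of Nodal, was also highest in asynchronous CCNA-GFP cells, at 2.76, 4.42 and 1.51 TPM, and was between 0.238 and 1.20 TPM in all other libraries of this line. The 60 min level (0.495 and 1.20 TPM) did not differ detectably from mitosis (0.662, 0.498 and 0.394 TPM; 0.12 ± 0.17, limma adjusted p = 0.514) and differed from asynchronous cells by -1.18 ± 0.17 (adjusted p = 3.27e-06). In CTCF-AID -IAA it was at 7.36, 8.36 and 2.77 TPM in asynchronous cells and at 2.22, 1.64 and 0.336 TPM in mitosis. The 60 min replicates stood far apart, with 2.09 TPM in replicate 1 and 10.4 TPM in replicate 2, and the same replicates held 2.68 and 11.6 TPM in the +IAA arm. The fitted rise from mitosis (1.04 ± 0.38, adjusted p = 0.0139) rests on replicate 2 and was 0.14 and not called without it. The +IAA rise, 1.06 ± 0.38 (adjusted p = 0.0122), was 0.24 and not called without replicate 2. By 120 min Lefty1 was at 0.388 and 3.16 TPM without IAA, a difference from asynchronous cells of -1.84 ± 0.38 (limma adjusted p = 0.000300). Without the replicate block this value was -1.47 and was not called (adjusted p = 0.0769).

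Lefty2 had the lowest mean level of the members at each stage of CCNA-GFP, and of CTCF-AID except in asynchronous cells, where its mean (1.93 TPM without and 2.13 TPM with IAA) was above those of Id1 and Smad6. In CCNA-GFP it was at 0.986, 0.622 and 0.320 TPM in asynchronous cells and between 0.0533 and 0.254 TPM in all other libraries. It met the TPM minimum of 0.5 that the study set for listing a gene only through asynchronous cells, so its lower levels elsewhere in this line are partly fixed by that filter. In CTCF-AID, 7 of 12 means after release exceeded that minimum. There Lefty2 was at 3.10, 1.52 and 1.15 TPM in asynchronous cells, at 1.11, 0.659 and 0.336 TPM in mitosis and at 0.652 and 1.10 TPM at 60 min without IAA. The 60 min level differed from asynchronous cells by -0.74 ± 0.20 (limma adjusted p = 0.00161), and both 60 min libraries lay below all 3 asynchronous ones.

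**Figure D2:**
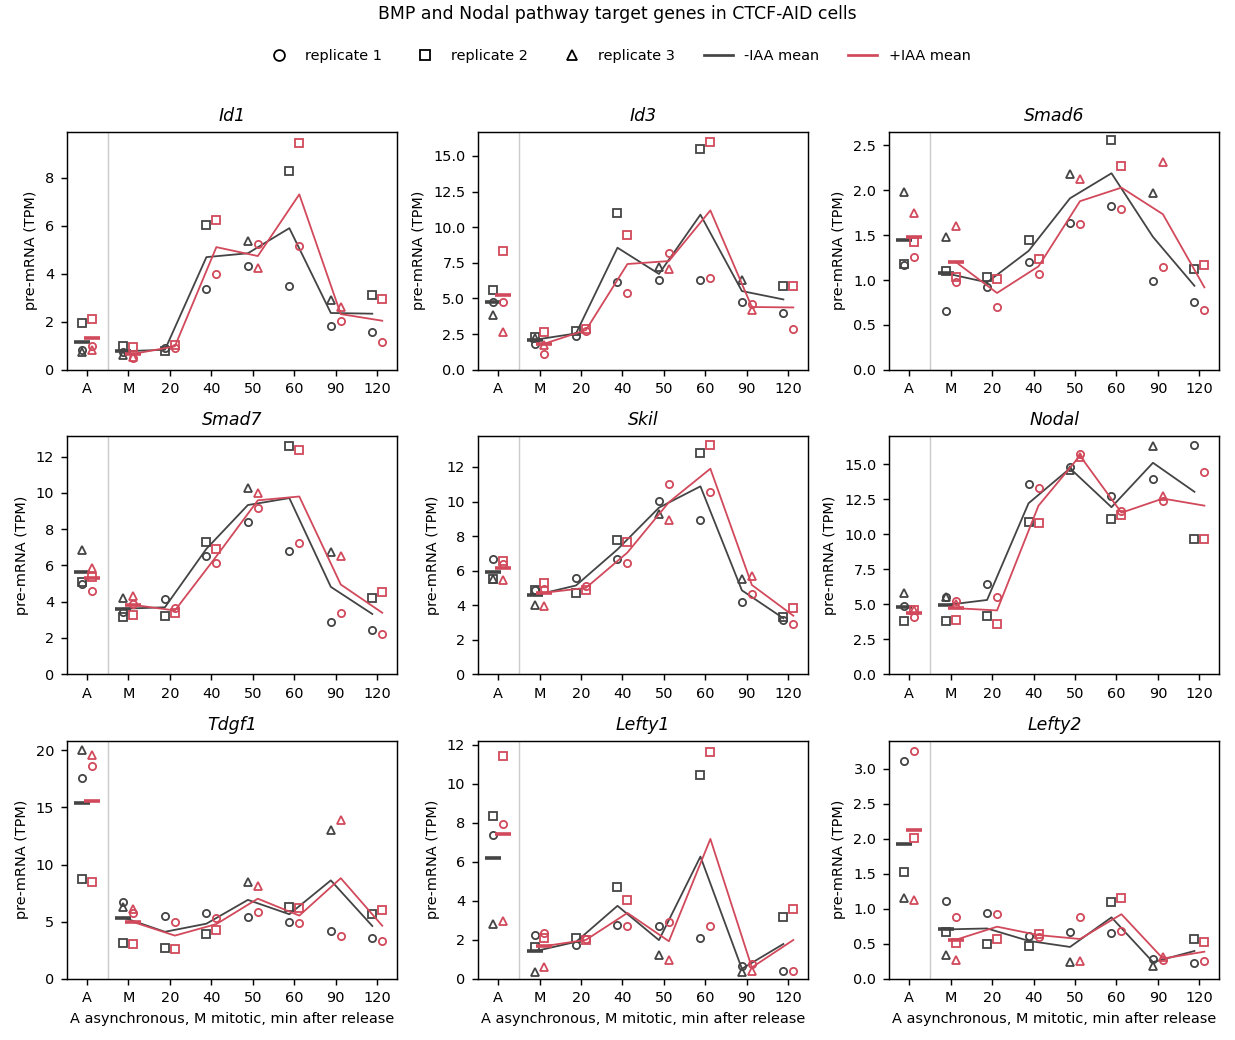
Pre-mRNA level (TPM, linear axis) of the 9 members in CTCF-AID cells without (grey) and with IAA (red), by stage as in the plot for CCNA-GFP cells. Symbols are single libraries by replicate, and lines and short bars are means. The arms run together in each panel, and at 60 min Lefty1 is at 2.09 TPM in replicate 1 and 10.4 TPM in replicate 2 without IAA.

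The courses of Nodal, its co-receptor and its antagonist can be set against each other within a library. In CCNA-GFP, the ratio of Nodal to Tdgf1 was 0.443 to 0.639 in asynchronous libraries, 2.21 to 2.54 in mitotic ones and 2.54 to 3.15 at 60 min. The last 2 ranges overlap slightly. Within replicate 1 the ratio was 2.21 in mitosis and 3.15 at 60 min, and within replicate 2 it was 2.541 and 2.537. In CTCF-AID -IAA it was 0.278 to 0.440 in asynchronous, 0.822 to 1.23 in mitotic and 1.76 to 2.57 in 60 min libraries, which do not overlap. The ratio of Nodal to Lefty1 in CCNA-GFP was 1.44 to 4.96 in asynchronous libraries, 8.37 to 18.4 in mitosis and 12.2 to 33.9 at 60 min. In CTCF-AID -IAA that ratio was 0.457 to 2.09 in asynchronous libraries, 2.31 to 16.4 in mitotic libraries, 1.07 to 6.11 at 60 min, 21.2 to 47.6 at 90 min (replicates 1 and 3) and 3.07 to 42.2 at 120 min, where replicate 2 held the 3.07. The ratio of Nodal to Tdgf1 was thus lower in asynchronous libraries than in all others of the same line and arm. The ratio to Lefty1 overlapped between asynchronous and 60 min libraries in CTCF-AID, but within each replicate that has both stages it was lower in asynchronous cells, at 0.664 against 6.11 and 0.457 against 1.07 without IAA and at 0.514 against 4.36 and 0.400 against 0.979 with it.

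At 60 min most members were called higher than in mitosis, as most genes were, whereas at later times fewer members were in CTCF-AID. Counts in CCNA-GFP leave out Lefty2, which is listed there only through asynchronous cells, a choice made after the values had been seen. In that line, 6 of 8 members were called higher at 40 min (49.3% of all genes), 7 at 60 min (88.3%), 7 at 120 min (90.2%) and 7 in asynchronous cells (70.4%). In CTCF-AID -IAA, 6 of 9 were called higher at 40 min (63.3%), 7 at 60 min (84.8%) and 3 at 120 min (69.6%), and 7 in asynchronous cells (34.3%). In CTCF-AID +IAA the counts were 5 at 40 min (58.7%), 7 at 60 min (82.2%), 3 at 120 min (68.2%) and 6 in asynchronous cells (40.9%). At 90 min 7 of 8 members were called higher in CCNA-GFP (8833 of 9911 genes). In CTCF-AID 4 of 9 were called higher at 90 min in each arm (7658 of 10237 genes without and 7555 with IAA). At 20 min no member and no gene (0%) was called by limma in any of the 3 series, and among the members Id1 in CCNA-GFP alone had an unadjusted p under 0.05 (0.29 ± 0.12). The 60 min median of the members was 1.28 in CCNA-GFP, 1.04 without and 1.13 with IAA in CTCF-AID, beside 0.79, 0.63 and 0.63 over all genes. Such medians depend on the pseudocount. With 0.1 in place of 1 those over all genes were 1.30, 1.02 and 1.03, which cannot be set against the member values given here. With libraries scaled to the same total the median of all genes moved to 0.02 at 60 min in CCNA-GFP, where 36.4% of genes were then called higher and 33.3% lower, and 4 members were called higher (Id1, Id3, Smad6 and Smad7) and none lower. Under that scaling 4 members were called higher at 60 min without IAA (Id1, Id3, Nodal and Smad7, beside 39.4% of all genes) and 5 with IAA (the same and Skil, beside 40.7%). The shares in CTCF-AID at the other stages depended on the scaling as well. With libraries scaled to the same total, 2 members were called higher at 120 min than in mitosis in each arm (32.0% of all genes without and 33.5% with IAA) and 5 higher in asynchronous cells in each (27.2% and 29.8%). With division by the step factor 3 were called higher at 120 min in each arm (60.8% and 62.4%) and 8 in asynchronous cells in each (66.0% and 67.1%). The asynchronous against mitotic count without IAA dropped to 2 without the replicate block (Tdgf1 and Lefty2), and the share of all genes to 11.6%.

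Against asynchronous cells, the members divided. At 60 min in CCNA-GFP, 5 of 8 were called higher (Id1, Id3, Smad6, Smad7 and Nodal) where 67% of all genes were, and 2 were called lower (Tdgf1 and Lefty1) where 8.6% were. Without the replicate block the higher members were Id1 and Nodal, beside 52.8% of all genes. In CTCF-AID -IAA, 6 of 9 were higher (75.2%) and 2 lower, Tdgf1 and Lefty2 (7.06%), and in CTCF-AID +IAA again 6 (72.2%) and 2 (8.24%). The libraries of asynchronous cells are shared by these comparisons and those at 120 min within each arm. With libraries scaled to the same total, Nodal alone was called higher at 60 min in CCNA-GFP (35.0% of all genes), and Nodal and Id1 in both arms of CTCF-AID (37.5% without and 36.9% with IAA). Under it Tdgf1, Lefty1 and Skil were called lower in CCNA-GFP (35.2%), and Tdgf1, Lefty1 and Lefty2 in CTCF-AID (32.9% and 33.9%).

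From 60 to 120 min, 4 of 8 members were called lower in CCNA-GFP (Id1, Smad6, Smad7 and Skil, against 28.5% of all genes). In CTCF-AID 6 were called lower without IAA (53.1%) and 6 with it (50.8%), namely Id1, Id3, Smad6, Smad7, Skil and Lefty1 in each arm. Without the replicate block 2 members, Smad7 and Skil, were lower in CCNA-GFP, beside 12.1% of all genes.

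A comparison of 120 min with asynchronous cells was added after the values had been seen. Of the 8 members, 3 were lower in CCNA-GFP (5.86% of all genes), namely Skil, Tdgf1 and Lefty1. In CTCF-AID -IAA 6 of 9 were lower (7.25%), with Lefty2, Smad6 and Smad7 in addition, and in CTCF-AID +IAA 5 (8.43%), which did not include Smad7. With libraries scaled to the same total 5 of 8 were lower in CCNA-GFP, 6 of 9 in CTCF-AID -IAA and 7 of 9 in +IAA, beside 24.9%, 27.7% and 29.2% of all genes, and with division by the step factor 4, 6 and 6 beside 8.66%, 18.6% and 18.6%. Without the replicate block, Tdgf1 and Lefty1 were lower in CCNA-GFP (3.57% of all genes), and Tdgf1, Lefty2 and Skil in CTCF-AID without IAA (3.43%) and with it (4.35%). Nodal was higher in all 3 series (63.4%, 51% and 47.2% of all genes). Id1 was also higher in CCNA-GFP (0.38 ± 0.12, limma adjusted p = 0.0105) and in CTCF-AID -IAA (0.55 ± 0.18, adjusted p = 0.0130), and Id3 in CCNA-GFP (0.36 ± 0.14, adjusted p = 0.0309). The Id1 call in CCNA-GFP is lost with division by the step factor (adjusted p = 0.381) and without replicate 2 (0.0793). In CTCF-AID -IAA it is lost without the block (0.146), with the step factor (0.118), with libraries scaled to the same total (0.115) and without replicate 3 (0.0578). The Id3 call is lost without the block (0.20), with a pseudocount of 0.1 (0.103), with the step factor (0.516) and without replicate 2 (0.780). With libraries scaled to the same total, the CCNA-GFP values were -0.0066 for Id1 and -0.074 for Id3, and neither was called.

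**Figure D3:**
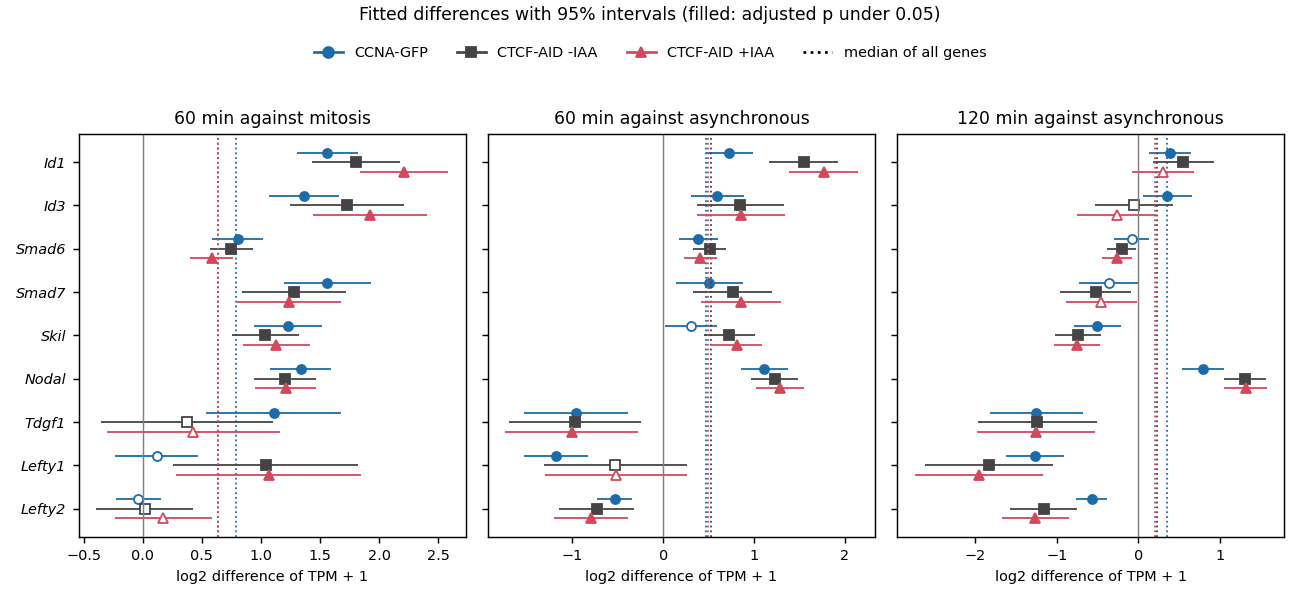
Fitted log2 difference of TPM + 1 with its 95% interval for each member (rows) in 3 comparisons (panels) and 3 series (colours). Filled symbols are called and dotted lines are the medians of all genes, and Lefty2 in CCNA-GFP is listed only through asynchronous cells. At 60 min the difference from asynchronous cells is 1.11 to 1.28 for Nodal and -0.96 to -1.01 for Tdgf1 in the 3 series.

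The question of the CTCF-AID series is whether depletion of CTCF alters reactivation. None of 72 tests of +IAA against -IAA (9 members at 8 stages, without a block) was called at the adjusted p of 0.1 and absolute log2 difference of 0.2 set for this comparison, and none had an unadjusted p under 0.05. Over all genes, 1.01% were called in asynchronous cells and 0% in mitotic ones. After release the share was 0% in the 20 and 40 min cells, 0.283% after 50 min, 0.225% after 60 min, 0.733% after 90 min and 0.586% after 120 min, so a count of 0 in 9 members is near the background. With a count model, the study reported genes that responded to CTCF depletion early after release. This fit called none at 20 and 40 min, so a lack of calls here does not show a lack of response. The lowest unadjusted p was 0.292 (limma adjusted p at least 0.9998 in all tests). The differences ranged from -0.26 (Id3 at 90 min) to 0.31 (Id1 at 60 min), and their 95% intervals reached from -1.49 to 1.58, widest for Lefty1. With the replicate as a block, which pairs the arms, the differences are the same, the intervals narrowed to a range of -0.95 to 1.05, and again 0 of 72 were called and 0 had an unadjusted p under 0.05. The share of all genes called with the block was 2.43% in asynchronous cells, 1.71% after 90 min and 1.43% after 120 min, and between 0% and 1.01% in the other stages.

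Id1 at 60 min was at 5.15 and 9.48 TPM with IAA against 3.51 and 8.30 TPM without it, the largest positive difference (0.31 ± 0.34, 95% interval -0.40 to 1.02, and -0.10 to 0.72 with the block). Id3 at 90 min was at 4.61 and 4.20 TPM with IAA against 4.78 and 6.26 TPM without it, the largest negative one (-0.26 ± 0.40, interval -1.09 to 0.56). Nodal at 90 min was at 12.4 and 12.7 TPM with IAA against 13.9 and 16.3 TPM without it (-0.25 ± 0.23, interval -0.72 to 0.22, and -0.53 to 0.04 with the block). Over the 8 stages the differences were -0.09 to 0.03 for Tdgf1, -0.08 to 0.06 for Smad7 and -0.03 to 0.13 for Skil. The interval of Lefty1 at 60 min without the block, -1.19 to 1.58, includes values as large as its own fitted rise.

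Interaction terms tested the difference between IAA effects. The IAA effect at 20 to 60 min minus that in asynchronous cells ranged from -0.17 to 0.06 over the members, with none called, where 0.0195% of all genes were called. The IAA effect on the rise from mitosis to 60 min ranged from -0.16 (Smad6) to 0.41 (Id1, 0.41 ± 0.44, 95% interval -0.51 to 1.32), with no member and no gene called. No member had an unadjusted p under 0.05 in either. These fits leave out the pairing of the arms by replicate. With the block, 0.41% and 0.215% of all genes were called for the first and second term, again with no member called and no member at an unadjusted p under 0.05, and the interval of Id1 for the second was -0.12 to 0.93.

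**Figure D4:**
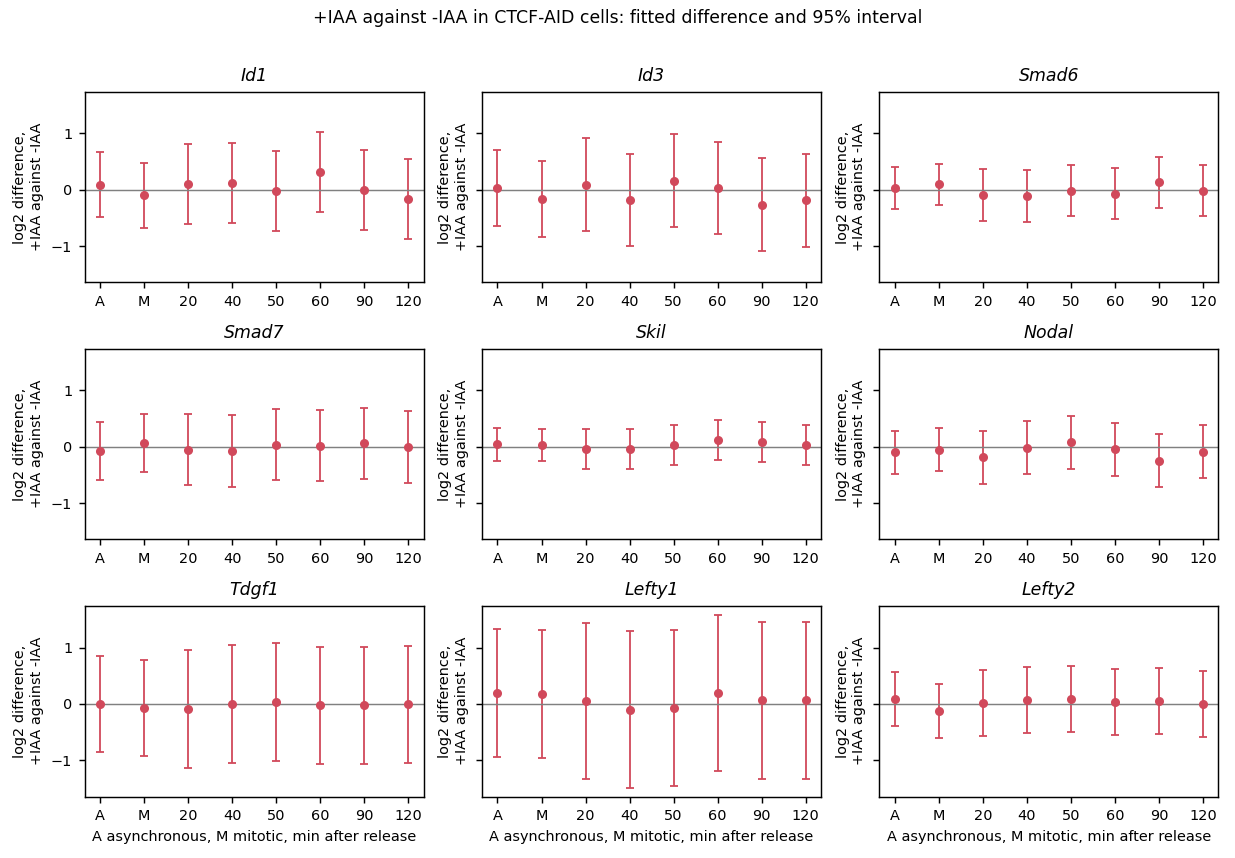
Fitted log2 difference of TPM + 1 between +IAA and -IAA cells of the CTCF-AID line for each member and stage, with the 95% interval of the fit without a replicate block. Each interval includes 0, and differences lie between -0.26 and 0.31.

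Correlations of log2(TPM + 1) across libraries describe how the members varied together. Libraries share stages, replicate numbers and the scaling of TPM, so these values carry no test. Id1 and Id3 had r = 0.88 over 19 CCNA-GFP libraries and 0.92 over 36 CTCF-AID libraries, Smad6 and Smad7 had 0.86 and 0.85, and Smad7 and Skil had 0.85 and 0.89. Lefty1 and Lefty2 had 0.84 and 0.79, with the overlap of their reads as given above. Values between genes of different roles were in part as high, with 0.84 and 0.70 for Id1 and Nodal, 0.76 and 0.78 for Id1 and Smad7 and 0.78 and 0.71 for Id3 and Skil. Lefty1 had 0.10 and 0.33 with Id1, and Lefty2 had -0.0056 and -0.15. Nodal had r = -0.26 and -0.29 with Lefty1 and 0.27 and -0.12 with Tdgf1.

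Over the 25 stage means of both tables, the genes with courses most like each member were found among 6604 genes that averaged at least 1 TPM in both. Those most like Nodal were Psrc1 (r = 0.98), Dnajb5 (0.98) and Gdf15 (0.98). Id1 was most like Dusp5 (0.97), Nfkbia (0.96) and Eif1 (0.96), and Id3 most like Dusp6 (0.95), Id1 (0.95) and Zfp36l2 (0.93). Smad7 was most like Atl2 (0.98), Cyp51 (0.98) and Pgk1 (0.98), and Skil like Sqle (0.94), Smad7 (0.93) and Slc2a3 (0.93). Tdgf1 was most like Mettl5 (0.96), Kif24 (0.92) and Rnf125 (0.92). Smad6, Lefty1 and Lefty2 averaged under 1 TPM in at least 1 table and were not matched.

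Other genes of the pathways were taken from a list of 72, of which 43 were listed in CCNA-GFP and 46 in CTCF-AID. At 60 min 40 of 43 were higher than in mitosis in CCNA-GFP and none lower (88.3% of all genes higher), with a median of 0.73 beside 0.79 over all genes. Exceptions were Inha, the inhibin alpha subunit, Pcsk6, a convertase that can process Nodal, and the mesoderm gene T, with differences of 0.22, -0.13 and 0.07. By role, 8 of 9 ligands, 7 of 7 receptors, 5 of 5 signal-transducing SMADs, 10 of 10 intracellular antagonists and 5 of 6 other target genes rose. Of these target genes, Id4, Msx1, Hey1 and Eomes averaged under 0.5 TPM in asynchronous cells of both lines. They are thus listed only through stages after release, and their rise is partly fixed by that filter. In CCNA-GFP the same holds for Bmp7, Gdf1, Tgfb1, Tgfb2 and Twsg1. In CTCF-AID -IAA 42 of 46 rose (84.8% of all genes) and 2 fell (2.7%), Pcsk6 (-0.22 ± 0.07, limma adjusted p = 0.00589) and the SMAD anchor Zfyve9 (-0.18 ± 0.06, adjusted p = 0.00615), and these exceptions were named after their values were seen.

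In each role the gene with the largest called change at 60 min in CCNA-GFP gives the scale. Among intracellular antagonists this was the repressor Tgif2, at 1.61 ± 0.19 TPM (SD, n = 3) in mitosis and 10.1 ± 2.00 TPM (n = 2) at 60 min, a larger rise (2.15 ± 0.14 SE) than that of any member in this line. In CTCF-AID it rose by 1.68 without and 1.71 with IAA, less than Id1 (1.80 and 2.21). The type I receptor Tgfbr1 went from 1.51 ± 0.19 to 6.25 ± 1.39 TPM, and the follistatin gene Fst from 0.324 ± 0.181 to 3.38 ± 0.317 TPM. Foxh1, the DNA-binding partner of SMAD2 on Nodal targets, went from 2.49 ± 0.65 to 5.73 ± 0.30 TPM and was still at 5.71 ± 0.19 TPM at 120 min. In CTCF-AID Foxh1 fell from 60 to 120 min without IAA (-0.53 ± 0.19, limma adjusted p = 0.0191) and with it (-0.84 ± 0.19, adjusted p = 0.000586). Bmp4 went from 0.393 ± 0.183 to 2.06 ± 0.91 TPM, Smad2 from 2.18 ± 0.36 to 4.99 ± 1.66 TPM, and Id4, another ID gene, from 0.188 ± 0.032 to 2.08 ± 0.36 TPM. Id4 is listed only through stages after release, as given above. None of the 46 listed genes was called for IAA at any of the 8 stages in the fit without a block. Between 0% and 1.01% of all genes were called per stage in that fit, so this count is near the background. An unadjusted p under 0.05 occurred for 1 of these genes, at 50 min (limma, 0.0203).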

How the data were processed

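Unspliced RNA of 55 libraries was analysed. The authors made stranded libraries after ribosomal RNA depletion, used STAR (mm10) and RSEM with Gencode vM12, to which they had added 1 unspliced isoform for every gene, and deposited TPM. They kept genes over 0.5 TPM on average in asynchronous cells or at 2 or more stages after mitosis. Low values are multiples of a step that differs between libraries (0.01 TPM times 1.84 to 3.81), a factor not named in the sources used here. TPM hold no counts, so the count model of the study was not used. limma 3.58.1 (lmFit, eBayes with trend; R 4.3.3) was fitted on log2(TPM + 1) over all genes of a table, with Benjamini-Hochberg adjustment. Stage comparisons had the replicate as a block. IAA comparisons had none. Equal replicate numbers come from the labels. Libraries of equal number deviated from their group means together (r over 0.1) for 9 of 9 stage pairs in CCNA-GFP, 8 of 8 arm pairs in CTCF-AID and 17 of 18 stage pairs in CTCF-AID (lowest 0.054). Replicates are independent experiments per the study's methods, and no libraries held identical values. The fits were also run on simulated data with 200 changed genes, whose change was larger than any fitted IAA difference of the members. The outcome is not reported here, and smaller changes were not simulated.

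Members and gene lists were chosen with earlier results of these data known. All members are named. In the pathway list, the gene of each role with the largest called change at 60 min in CCNA-GFP is named, as would be any gene called for IAA at 2 or more stages, and 3 genes per member were named by likeness. Alternatives were a pseudocount of 0.1, libraries scaled to the same total or divided by their step factor, a mean of at least 1 TPM, leaving out each replicate, and dropping or adding the block. Positions are from Gencode vM21 (GRCm38), and promoters from RefSeq for 4 of 9 members. Calculations used Python 3.11.15, pandas 2.3.3 and Biopython 1.88.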

Additional observations from a re-analysis of the deposited data

Results flagged for a closer look

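Skil at 120 min moved in opposite directions from mitosis in the 2 lines. In CCNA-GFP it was higher than in mitosis in every replicate that has both stages (log2 difference 0.42), and in CTCF-AID without IAA it was lower in every one (-0.43). Since the tables were normalised separately, the difference between the lines was not tested, and with libraries scaled to the same total the CCNA-GFP value turned to -0.48. Each line has 2 replicates with both stages, and the median difference over all genes was 0.68 in CCNA-GFP and 0.34 in CTCF-AID -IAA.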

How the results depend on the processing

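Over 315 differences of single members and their alternatives, 2102 of 2467 values stayed on the same side of the threshold, and 117 lost and 56 gained it. A further 22 reversed in sign with a call in the main or the alternative fit, and 170 changed sign with no call in either. The IAA comparisons had 0 members called under each alternative, the replicate block included. The causes below were not tested.

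Scaling to the same total, which removes the shared rise of pre-mRNA by construction, had the widest effect. In CCNA-GFP the members higher than in mitosis went from 6 to 2 at 40 min, from 7 to 4 at 60 min and from 7 to 2 at 120 min, while the shares of all genes went to 23.7%, 36.4% and 28.7%. Those higher than asynchronous cells went from 5 to 1 at 60 min (35.0% of all genes) and from 3 to 1 at 120 min (26.8%). In CTCF-AID those higher than in mitosis went from 7 to 4 at 60 min without IAA (39.4%) and from 5 to 3 at 40 min with it (33.2%), and those higher than asynchronous cells from 6 to 2 at 60 min in both arms (37.5% and 36.9%) and from 2 to 1 at 120 min without IAA (26.9%). Reversed against mitosis in CCNA-GFP were Skil at 40 min (-0.031) and, at 120 min, Smad6 (-0.15), Smad7 (-0.25), Skil (-0.48), Nodal (-0.020) and Tdgf1 (-0.087), and in asynchronous cells Nodal (-0.30). Reversed against asynchronous cells in CCNA-GFP were Smad6 (-0.012), Smad7 (-0.17) and Skil (-0.35) at 60 min and Id1 (-0.0066) and Id3 (-0.074) at 120 min. In CTCF-AID -IAA, Smad6 at 40 min (-0.048) and 120 min (-0.29) and Skil at 40 min (-0.021) reversed against mitosis. In +IAA, Smad6 at 40 min (-0.25) and 60 min (-0.014) and Skil at 40 min (-0.061) did so, and Smad6 at 60 min against asynchronous cells (-0.069). Division by the step factor left 2 members higher than asynchronous cells at 60 min in CCNA-GFP (42.1% of all genes), and 1 at 120 min in CCNA-GFP (29.1%) and in CTCF-AID -IAA (20.9%).

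With no replicate block, the members lower at 120 than at 60 min in CCNA-GFP were 2 (12.1% of all genes), those higher than asynchronous cells 2 at 60 min in CCNA-GFP (52.8%) and 1 at 120 min in CTCF-AID -IAA (23.9%), those lower than asynchronous cells at 120 min 3 in both CTCF-AID arms (3.43% and 4.35%), and those higher in asynchronous than in mitotic cells 2 in -IAA (11.6%). The minimum of 1 TPM drops low members, and left 1 member lower at 60 min than in asynchronous cells in each series (5.24%, 5.16% and 6.38% of the genes kept) and 5 higher in asynchronous than in mitotic CCNA-GFP cells (74.1%). The CCNA-GFP counts here take in Lefty2.

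Leaving out a replicate gave 0 to 4 members lower at 120 than at 60 min in CCNA-GFP (6.37% to 33.4% of all genes), 1 to 3 higher at 120 min (45.8% to 64.2%) and 3 to 6 higher at 60 min (44.7% to 69.0%) than in asynchronous cells, and 4 to 7 higher at 120 min than in mitosis (84.0% to 88.6%). In CTCF-AID -IAA it gave 4 to 7 members higher in asynchronous than in mitotic cells (17.3% to 29.9%) and 1 to 2 higher at 120 min than in asynchronous cells (27.3% to 51.8%). Against mitosis at 120 min, Lefty1 in CCNA-GFP ranged from -0.27 (without replicate 2) to 0.21, and Smad7 from -0.29 to 0.30 (without replicate 1) in -IAA and from -0.46 to 0.36 (without replicate 1) in +IAA. With TPM alone, depth and the counting error of low members such as Lefty2 and Smad6 are unknown.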
